A study of Mus musculus with 6 samples.

Results

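The 6 RNA-seq libraries of the series were compared as 2 sets of 3, formed by the running number in the names of the deposited gene lists. Set 1 held the libraries numbered 1 to 3 and set 2 those numbered 4 to 6. By their labels, set 1 was made up of control 1, control 2 and Ring1B-KD 1, and set 2 of Ring1B-KD 2, Dzip3-KD 1 and Dzip3-KD 2. All were from E14 mouse embryonic stem (mES) cells of strain 129/Ola at passage 3 to 5, grown without feeder cells in 2i medium (the inhibitors PD0325901 and CHIR99021) with LIF. The genotype was labelled wild type for control, Ring1B knockdown for Ring1B-KD and Dzip3 knockdown for Dzip3-KD. Ring1B, encoded by *Rnf2*, and Dzip3 are ubiquitin ligases for histone H2A, and the study lowered them with transient siRNA, with a control siRNA in the control cells. The list names also carry a condition word, which differs from the label for 4 of the 6 libraries. Each word occurs once in each set, and it was used here only to pair libraries: control 1 with Ring1B-KD 2, control 2 with Dzip3-KD 1, and Ring1B-KD 1 with Dzip3-KD 2. The labels give no date, batch or culture. Both libraries labelled control fell in set 1 and both labelled Dzip3-KD in set 2, so the set and the label cannot be told apart, and only Ring1B-KD had a library in each set.

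In 2i medium, PD0325901 blocks the kinase that activates ERK, and CHIR99021 blocks the kinase Gsk3, which otherwise marks beta-catenin for degradation. Target genes of ERK are therefore held low and those of beta-catenin (Wnt targets) are held high, while LIF acts through the transcription factor Stat3. Nodal is a secreted signal that mES cells make themselves. It acts with the co-receptor Tdgf1 (Cripto), and its target genes *Lefty1* and *Lefty2* encode secreted inhibitors of the same pathway.

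Values are RPKM (read counts scaled to exon length and to the library's mapped reads), in the order control 1, control 2, Ring1B-KD 1 for set 1 and Ring1B-KD 2, Dzip3-KD 1, Dzip3-KD 2 for set 2. Differences are set 2 minus set 1 on the log2(RPKM + 1) scale, which understates the change of low genes. Mapped reads and reads per gene were recovered from the RPKM values, and the libraries rested on 3015469 to 3583793 mapped reads. At that depth a 2 kb transcript covered by 3 reads has a value of 0.419 to 0.497 RPKM. *Rnf2* was at 30.6, 20.4 and 26.8 RPKM in set 1 and 28.8, 19.4 and 28.2 RPKM in set 2 (log2 difference -0.03, SE 0.11, adjusted p = 0.897). It was lowest in control 2 and Dzip3-KD 1, whose list names both carry the word for Ring1B knockdown, and not in the libraries labelled Ring1B-KD. *Dzip3* was at 2.24, 2.68 and 1.18 RPKM in set 1 and 1.89, 1.7 and 1.31 RPKM in set 2 (log2 difference -0.18, SE 0.18, adjusted p = 0.561). It was lowest in Ring1B-KD 1 and Dzip3-KD 2, whose names carry the word for Dzip3 knockdown. The targeted genes thus went against some of the labels, and a library is named below by its label. The summed level of 8 defining mES cell markers was 1429 to 1837 RPKM in set 1 and 1706 to 1940 RPKM in set 2, and none was at 0 throughout. *Pou5f1*, *Sox2* and *Nanog*, the core pluripotency factors, did not pass the test between the sets (adjusted p = 0.720, 0.198 and 0.0715).

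To determine which genes differed between the sets, the 11538 genes whose mean reached 0.5 RPKM were tested in 1 paired limma fit. At an adjusted p under 0.05, 455 genes (3.94%) were higher in set 2 and 424 (3.67%) were lower. All values of set 2 lay above all values of set 1 for 1515 genes (13.1%), and below them for 1785 genes (15.5%). The median difference over all genes was -0.04. Of the called genes, 24 of the higher and 25 of the lower had a mean under 0.5 RPKM in the other set and so passed the filter through the set where they were high, among them the list members *Cdx1*, *Sp5*, *Spry4*, *Stmn3*, *Krt8*, *Rhox1* and *Scarna13*. Scaling to a common 75th percentile gave 564 higher and 341 lower calls, so the balance between the directions depended on the scaling. Leaving out 1 library also takes its partner out of the paired comparison. Without Dzip3-KD 1, 192 genes were higher and 159 lower. The calls were 207 and 160 without control 2, 221 and 279 without Dzip3-KD 2, 231 and 267 without Ring1B-KD 1, 275 and 213 without Ring1B-KD 2, and 294 and 215 without control 1. Nothing in the labels says that the libraries came from separate cultures, so the p-values measure the spread between these libraries, which may be technical. With the labelled group as a term, the set difference rested on Ring1B-KD 2 against Ring1B-KD 1 alone, and limma called 0 genes in either direction (884 higher and 691 lower at an unadjusted p under 0.05). Of the genes called in the paired fit, 453 of the 455 and 423 of the 424 had the same direction there, but those libraries are also part of both sets. The list names of Ring1B-KD 1 and Ring1B-KD 2 also carry different condition words, Dzip3 knockdown and control.

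Nodal, its co-receptor and its inhibitors were higher in set 2. *Lefty1* (chr1:182865153-182868531 in mm9, plus strand) was at 0.62, 0.182 and 1.85 RPKM in set 1 and 3.21, 3.82 and 6.96 RPKM in set 2. Every library of set 2 lay above every library of set 1, and within set 1 the highest was Ring1B-KD 1. The log2 difference was 1.63 (SE 0.18, adjusted p = 0.00564), and it ranged from 1.43 to 1.75 with 1 library left out, with an adjusted p of at most 0.0243. The level was low, since these values stood for 3, 1 and 10 recovered reads in set 1 and 17, 20 and 40 recovered reads in set 2. Summed over each set and corrected for depth, set 2 was at 5.32-fold (95% interval 2.99 to 10.2) the level of set 1, with an exact interval that covers counting error only. Between the libraries labelled Ring1B-KD alone, which differ in condition word, the log2 difference was 0.56. Within each set, *Lefty1* was highest in the library whose name carries the word for Dzip3 knockdown.

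*Lefty2* (chr1:182823239-182829234 in mm9, plus strand), the neighbouring inhibitor gene, was at 6.47, 4.26 and 4.46 RPKM in set 1 and 26.8, 20.0 and 26.6 RPKM in set 2. The sets lay far apart, with little spread inside either (log2 difference 2.08, SE 0.13, adjusted p = 0.00126). The libraries labelled Ring1B-KD, which differ in condition word, were apart by 2.35. *Nodal* itself was at 30.4, 22.4 and 22.4 RPKM in set 1 and 43.1, 36.3 and 36.4 RPKM in set 2 (log2 difference 0.61, SE 0.11, adjusted p = 0.0199). *Tdgf1* was at 146, 124 and 127 RPKM in set 1 and 202, 177 and 220.0 RPKM in set 2 (log2 difference 0.58, SE 0.11, adjusted p = 0.0229). The sets did not overlap for either gene. The call was lost for *Nodal* without control 2 or Dzip3-KD 1 (adjusted p up to 0.0801) and for *Tdgf1* without control 1, control 2, Ring1B-KD 2 or Dzip3-KD 1 (adjusted p up to 0.0735). These 4 genes were the called members among 10 tested ligands and inhibitors of the pathway (40%, beside 3.94% of all genes called higher). In this list 0 were called lower, and the median was 0.40, beside -0.04 for all genes. With control 2 or Dzip3-KD 1 left out, 2 of the 10 were called. *Gdf3*, a related ligand, was at 34.3, 30.3 and 30.2 RPKM in set 1 and 43.2, 32.5 and 40.5 RPKM in set 2, and did not pass the test (adjusted p = 0.162). Among 15 tested receptors and intracellular effectors, 0 were called higher and 1 lower (6.67%, beside 3.67% of all genes), with a median of -0.09. The lower gene was *Dact2*, which encodes a protein that promotes turnover of Nodal receptors (log2 difference -1.09, SE 0.14, adjusted p = 0.00792).

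**Figure D1:**
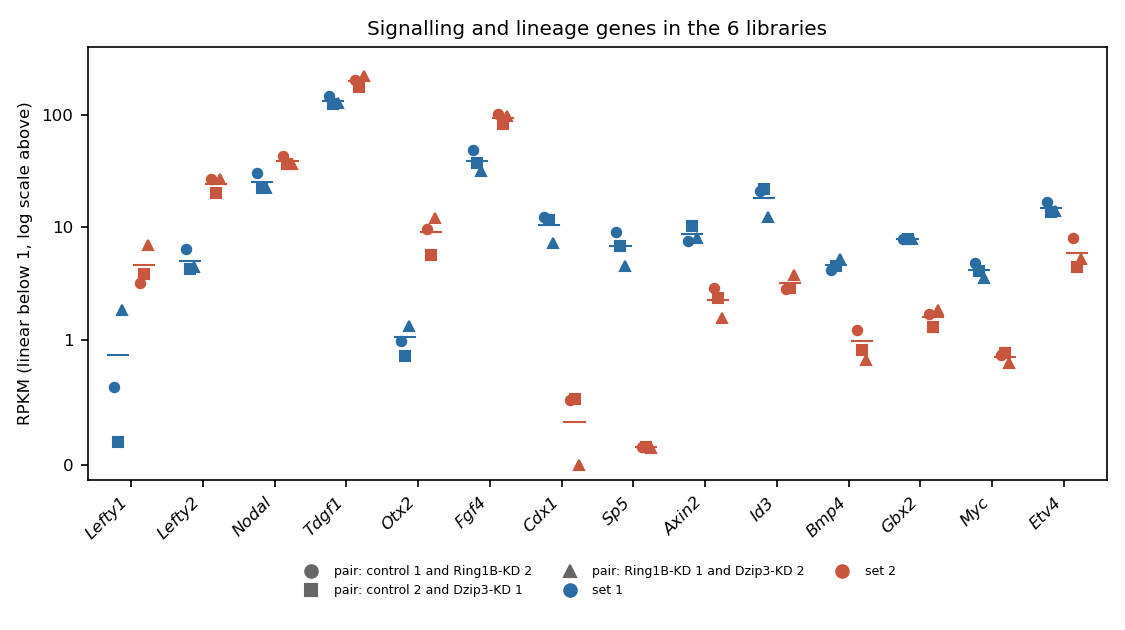
RPKM of 14 named genes in each library (vertical axis linear below 1 and logarithmic above), with set 1 in blue, set 2 in red, the marker shape giving the pair and the line the mean of the set. For *Lefty1*, the set 1 libraries lay at 0.182 to 1.85 RPKM and those of set 2 at 3.21 to 6.96 RPKM, and the sets are separated the other way for *Cdx1*, *Sp5* and *Id3*.

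*Otx2* and *Fgf4* were also higher in set 2. *Otx2*, a homeobox gene of the epiblast, was at 0.991, 0.871 and 1.33 RPKM in set 1 and 9.72, 5.72 and 12.1 RPKM in set 2. All libraries of set 1 were near the level of a few reads, and all of set 2 were above them (log2 difference 2.25, SE 0.18, adjusted p = 0.00236). The reads numbered 4, 4 and 6 reads in set 1 and 43, 25 and 58 reads in set 2, which puts set 2 at 8.7-fold (95% interval 5 to 16.4) the level of set 1. *Fgf4*, which encodes the FGF ligand of mES cells, was at 48.5, 37.2 and 32 RPKM in set 1 and 101, 83.3 and 96.6 RPKM in set 2 (log2 difference 1.25, SE 0.13, adjusted p = 0.00463), without overlap. Both calls held with any 1 library left out. Of 16 tested epiblast genes, 2 were called higher (*Otx2* and *Cldn6*, a tight junction gene) and 3 lower (12.5% and 18.75%, beside 3.94% and 3.67% of all genes). The list's median was -0.02, and 0.01 after scaling to the 75th percentile. *Dnmt3b*, a de novo DNA methyltransferase and one of the 3, was at 8.97, 11.1 and 8.84 RPKM in set 1 and 3.43, 3.25 and 5.09 RPKM in set 2 (log2 difference -1.12, SE 0.18, adjusted p = 0.0141). The others were *Etv4*, an ETS factor, and *Nefl*, a neurofilament gene. With Ring1B-KD 1 or Dzip3-KD 2 left out, 1 epiblast gene was called higher.

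Targets of the Wnt pathway included the 2 genes with the most negative difference of all genes tested, *Cdx1* and *Sp5*. *Cdx1*, a homeobox gene activated by beta-catenin, was at 12.3, 11.7 and 7.28 RPKM in set 1 and 0.519, 0.525 and 0 RPKM in set 2. The set 2 values rested on 3, 3 and 0 reads, against 65, 70 and 43 reads in set 1, and it had the smallest adjusted p of the fit (log2 difference -3.08, SE 0.15, adjusted p = 0.000324). *Sp5*, a zinc finger factor, was at 9.17, 6.81 and 4.52 RPKM in set 1 and 0.144, 0.146 and 0.133 RPKM in set 2, which is 1 read in each library of set 2 (log2 difference -2.74, SE 0.20, adjusted p = 0.00194). In depth-corrected reads, set 1 was at 30.7-fold (95% interval 13.8 to 84.7) the level of set 2 for *Cdx1* and at 47.9-fold (95% interval 16.1 to 235) for *Sp5*. *Axin2*, the feedback inhibitor of the pathway, was at 7.63, 10.3 and 8.07 RPKM in set 1 and 2.91, 2.37 and 1.57 RPKM in set 2 (log2 difference -1.57, SE 0.17, adjusted p = 0.00564). These 3 calls held with any 1 library left out. *Notum*, a secreted Wnt inhibitor, went the other way, at 6.41, 5.92 and 5.87 RPKM in set 1 and 13.5, 8.34 and 14.1 RPKM in set 2 (log2 difference 0.85, SE 0.16, adjusted p = 0.0236), and its call was lost without Ring1B-KD 1, Ring1B-KD 2 or Dzip3-KD 2 (adjusted p up to 0.0708). Of 14 tested Wnt targets, 1 was thus called higher (7.14%, beside 3.94% of all genes) and 3 lower (21.4%, beside 3.67%), with a median of -0.23. Among the lower calls, *Cdx1* and *Sp5* passed the filter only through set 1, where they were high, so their calls are given as a description.

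The promoter window of *Sp5* (RefSeq, GRCm38.p6) is printed because its start region holds a motif of TCF/LEF, the factors that bring beta-catenin to DNA. The motif CTTTGAT, searched on both strands in the 250 bases before the start, is in capitals. It was in 1053 of 32851 RefSeq windows (3.21%), and in 1 of the 12 windows of tested Wnt targets. A match describes letters and was not tested as a binding site.
Sp5 chr2:70474779-70474878, plus strand: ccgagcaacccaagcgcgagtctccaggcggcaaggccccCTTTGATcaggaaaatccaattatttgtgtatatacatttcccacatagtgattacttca

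Of the BMP pathway and its Id target genes, 3 of 14 tested members were lower in set 2 (21.4%, beside 3.67% of all genes) and 0 higher. *Id3*, an inhibitor of differentiation factors, was at 20.9, 21.7 and 12.4 RPKM in set 1 and 2.86, 2.89 and 3.81 RPKM in set 2 (log2 difference -2.18, SE 0.21, adjusted p = 0.00397). *Bmp4*, the ligand, was at 4.16, 4.53 and 5.21 RPKM in set 1 and 1.21, 0.922 and 0.84 RPKM in set 2 (log2 difference -1.50, SE 0.17, adjusted p = 0.00564). *Dusp9*, an ERK phosphatase induced by BMP, was at 15.1, 17.7 and 10.3 RPKM in set 1 and 7.51, 9.52 and 4.96 RPKM in set 2 (log2 difference -0.89, SE 0.12, adjusted p = 0.0106). None of these overlapped between the sets, and the 3 calls held with any 1 library left out. The median of the list was -0.06, beside -0.04 for all genes.

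Feedback and early response genes of the ERK pathway were lower in set 2 for 7 of 20 tested members, with 0 higher and a median of -0.46. In 12 of the 20 the sets did not overlap in that direction. Over all genes, 3.67% were called lower and 15.5% were lower without overlap. *Myc* was at 4.84, 4.13 and 3.58 RPKM in set 1 and 0.883, 0.893 and 0.814 RPKM in set 2 (log2 difference -1.47, SE 0.16, adjusted p = 0.00564). *Etv4* was at 16.9, 13.6 and 14.1 RPKM in set 1 and 8.03, 4.46 and 5.26 RPKM in set 2 (log2 difference -1.23, SE 0.14, adjusted p = 0.00564). *Spry2*, a feedback inhibitor of receptor kinases, was at 31, 30.7 and 24 RPKM in set 1 and 13.5, 16.4 and 15.1 RPKM in set 2 (log2 difference -0.88, SE 0.13, adjusted p = 0.0124). In each of them every library of set 2 was below every library of set 1. The remaining called members were the phosphatase gene *Dusp6*, *Spry4* (which passed the filter only through set 1), *Ier2* and *Phlda1*. The count was 3 without control 2 or Dzip3-KD 1 and 4 without Ring1B-KD 1, while *Myc*, *Etv4* and *Spry2* kept their calls throughout. Between the libraries labelled Ring1B-KD, which differ in condition word, the list's median was -0.25.

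Of 19 tested genes of the LIF pathway, 4 were lower (21.1%, beside 3.67% of all genes) and 0 higher. With 75th percentile scaling 2 were higher and 4 lower, and with quantile normalization 2 and 3. Without the pairing 2 were lower. With the labels' replicate number in its place (the replicate block), or without the variance trend, 1 was lower. *Gbx2*, a homeobox target of Stat3, was at 7.96, 7.82 and 7.95 RPKM in set 1 and 1.71, 1.3 and 1.84 RPKM in set 2 (log2 difference -1.77, SE 0.15, adjusted p = 0.00251), tight within each set and far apart between them. *Stat3* was at 13.2, 11.2 and 10.9 RPKM in set 1 and 6.88, 5.66 and 8.4 RPKM in set 2 (log2 difference -0.69, SE 0.15, adjusted p = 0.0319). Its feedback inhibitor *Socs3* (log2 difference -0.62) and the naive-state factor *Tfcp2l1* (-0.48) were the others. The call of *Gbx2* held with any library left out, whereas *Stat3* lost it without control 1, control 2, Ring1B-KD 2 or Dzip3-KD 1 (adjusted p up to 0.125), *Socs3* without control 1, control 2, Ring1B-KD 2 or Dzip3-KD 1 (adjusted p up to 0.186) and *Tfcp2l1* without control 1, control 2, Ring1B-KD 2 or Dzip3-KD 1 (adjusted p up to 0.174). The list's median was -0.10. Among 28 tested pluripotency genes, 2 were higher (*Fgf4* and *Tdgf1*) and 6 lower (*Esrrb*, *Tfcp2l1*, *Dppa2*, *Utf1*, *Gbx2* and *L1td1*), with a median of -0.23. Those were 7.14% and 21.4%, beside 3.94% and 3.67% of all genes. *Utf1*, a chromatin factor of mES cells, was at 50.9, 42.7 and 75.1 RPKM in set 1 and 35, 26.1 and 43.1 RPKM in set 2, with overlap between the sets (log2 difference -0.67, SE 0.11, adjusted p = 0.0147). The counts were 1 higher and 1 lower without control 2 or Dzip3-KD 1, and 1 higher and 3 lower without control 1 or Ring1B-KD 2. With 75th percentile scaling, 4 were higher and 4 lower. Without the pairing the lower calls numbered 2, and under the replicate block 1 was higher and 1 lower. Among 17 tested DNA methylation genes, 0 were higher and 2 lower (11.8%, beside 3.67% of all genes), *Dnmt3b* and *Uhrf1* (median -0.11). Of these, 1 was called without control 1, control 2, Ring1B-KD 2 or Dzip3-KD 1.

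The unfolded protein response (UPR) is the program by which cells raise chaperones and folding enzymes of the endoplasmic reticulum. Of the lists examined, it had the largest share of members called higher (63.6%). In all, 14 of 22 tested members were higher in set 2 and 0 lower, and in 20 of the 22 the sets did not overlap. Over all genes, 3.94% were called higher and 13.1% were higher without overlap. The median difference was 0.67, and it was 0.55, 0.63 and 0.78 in the 3 pairs. *Hspa5* (BiP), the main chaperone, was at 107, 78.5 and 76.9 RPKM in set 1 and 152, 171 and 188 RPKM in set 2 (log2 difference 0.96, SE 0.15, adjusted p = 0.0145). *Hsp90b1* (Grp94) was at 80.9, 64.5 and 87.7 RPKM in set 1 and 130.0, 135 and 154 RPKM in set 2 (log2 difference 0.85, SE 0.11, adjusted p = 0.00984). *Xbp1*, a transcription factor of the response, was at 11.7, 11.9 and 14.9 RPKM in set 1 and 22.4, 22.6 and 30.8 RPKM in set 2 (log2 difference 0.92, SE 0.11, adjusted p = 0.0069). All 3 were higher in every library of set 2 than in any of set 1. Among the disulfide isomerases, *Pdia6* was at 29.3, 26.6 and 27.1 RPKM in set 1 and 63.5, 66 and 81.7 RPKM in set 2 (log2 difference 1.31, SE 0.12, adjusted p = 0.0034), and *Pdia4* at 41.2, 37.2 and 46.2 RPKM in set 1 and 69.4, 85 and 86.8 RPKM in set 2 (log2 difference 0.93, SE 0.12, adjusted p = 0.00798). *Sdf2l1*, a chaperone cofactor, was at 13.5, 11.8 and 10.7 RPKM in set 1 and 24.3, 30.9 and 32 RPKM in set 2 (log2 difference 1.21, SE 0.15, adjusted p = 0.00771). The other called members were *Pdia3*, *Dnajb11*, *Dnajc3*, *Calr*, *Canx*, *Creld2*, *Manf* and *Hyou1*. Without Dzip3-KD 1, 9 were called, and with any other library left out up to 12. Between the libraries labelled Ring1B-KD, which differ in condition word, the list's median was 0.63.

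Promoter stretches of called members are shown because they hold the ER stress element, to which factors of this response bind. The element reads CCAAT, any 9 bases, then CCACG, and was searched on both strands in the 250 bases before each RefSeq start (GRCm38.p6). It was in 7 of the 12 windows matched to the 14 called genes (58.3%), and in 37 of all 32851 windows (0.113%). In the tested members of the list, called or not, it was in 8 of 19 windows (42.1%). Capitals mark the element, which is on the opposite strand in *Calr*. No binding was measured.
Hspa5 chr2:34771985-34772084, plus strand: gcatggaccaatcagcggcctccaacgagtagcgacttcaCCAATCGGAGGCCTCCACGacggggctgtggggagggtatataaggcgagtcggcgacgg
Pdia6 chr12:17266451-17266550, plus strand: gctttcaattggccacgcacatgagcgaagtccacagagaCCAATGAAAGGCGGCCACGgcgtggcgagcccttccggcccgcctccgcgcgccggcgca
Canx chr11:50325759-50325858, minus strand: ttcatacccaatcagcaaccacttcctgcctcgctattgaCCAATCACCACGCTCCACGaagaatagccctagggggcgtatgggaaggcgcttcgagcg
Calr chr8:84847034-84847133, minus strand: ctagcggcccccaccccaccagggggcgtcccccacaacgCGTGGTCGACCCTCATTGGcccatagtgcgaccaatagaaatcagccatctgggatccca

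Targets of the transcription factor Atf4, which raises amino acid synthesis and tRNA charging under stress, went the opposite way. Of 31 tested members, 13 were lower in set 2 and 1 higher, with a median of -0.55, and in 21 the sets did not overlap in the lower direction. Over all genes, 3.67% were called lower and 15.5% were lower without overlap. *Shmt2*, a mitochondrial serine enzyme, was at 58.8, 51.9 and 61.5 RPKM in set 1 and 28, 23.6 and 25.4 RPKM in set 2 (log2 difference -1.13, SE 0.11, adjusted p = 0.0034). The tRNA synthetase gene *Aars* was at 72.7, 66.9 and 69.5 RPKM in set 1 and 36, 36.9 and 37.3 RPKM in set 2 (log2 difference -0.91, SE 0.10, adjusted p = 0.00564), and *Gars* was at 40.7, 39.9 and 39.7 RPKM in set 1 and 20.0, 19.2 and 22.8 RPKM in set 2 (log2 difference -0.93, SE 0.11, adjusted p = 0.0069). Values inside each set were close, and set 2 lay well below set 1. *Chac1*, which degrades glutathione, was at 14.4, 9.48 and 16.4 RPKM in set 1 and 4.44, 4.29 and 7.11 RPKM in set 2 (log2 difference -1.20, SE 0.15, adjusted p = 0.0069). *Atf4* itself was at 264, 218 and 255 RPKM in set 1 and 163, 141 and 185 RPKM in set 2 (log2 difference -0.59, SE 0.10, adjusted p = 0.0191), and lost its call without control 1, control 2, Ring1B-KD 2 or Dzip3-KD 1 (adjusted p up to 0.0942). The member called higher was *Ddit3* (Chop), at 6.47, 6.02 and 7.15 RPKM in set 1 and 10.1, 12.3 and 9.61 RPKM in set 2 (log2 difference 0.62, SE 0.15, adjusted p = 0.0407), lost without control 1, control 2, Ring1B-KD 2 or Dzip3-KD 1 (adjusted p up to 0.187). The remaining lower members were *Atf5*, *Asns*, *Sesn2*, *Psat1*, *Mthfd2*, *Wars*, *Nars* and *Ppp1r15a*. The lower count was 6 without control 1, control 2, Ring1B-KD 2 or Dzip3-KD 1, and 14 without Ring1B-KD 1 or Dzip3-KD 2. *Shmt2*, *Aars*, *Gars* and *Chac1* kept their calls throughout.

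Promoter stretches of 3 of these genes are shown for a C/EBP-ATF response element, the kind of site that Atf4 binds, in capitals. The motif TTNCATCA, searched the same way, was in 4 of the 13 windows of the 11 matched called genes (30.8%), and in 1134 of all windows (3.45%). In the tested members of the list, called or not, it was in 8 of 30 windows (26.7%), a share close to that of the called genes.
Aars chr8:111033690-111033789, plus strand: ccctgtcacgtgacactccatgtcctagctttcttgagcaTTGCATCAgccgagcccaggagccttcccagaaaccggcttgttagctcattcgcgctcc
Chac1 chr2:119351009-119351108, plus strand: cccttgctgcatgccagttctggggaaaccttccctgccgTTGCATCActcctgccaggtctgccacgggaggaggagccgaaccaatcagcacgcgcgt
Gars chr6:55037901-55038000, plus strand: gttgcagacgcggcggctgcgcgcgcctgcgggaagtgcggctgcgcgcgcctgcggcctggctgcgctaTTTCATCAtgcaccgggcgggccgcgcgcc

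**Figure D2:**
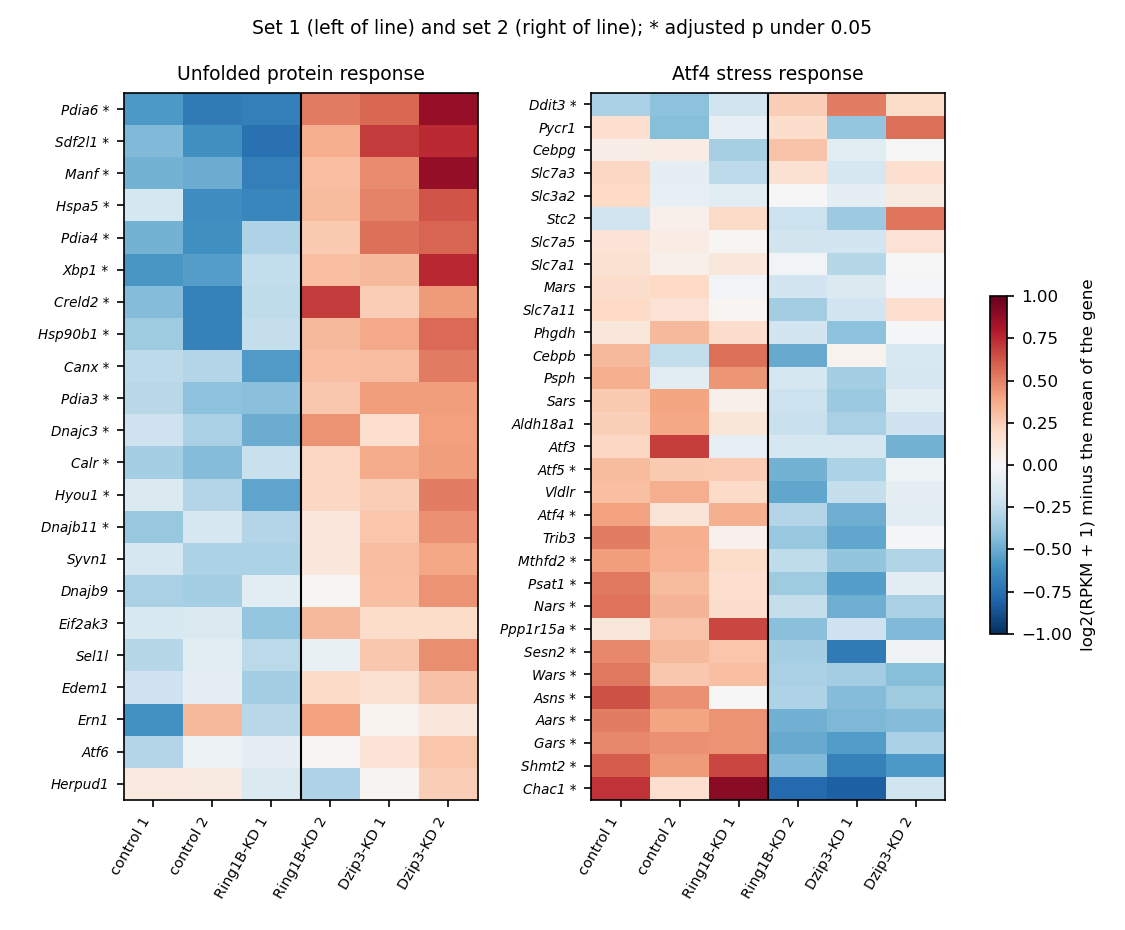
Heat map of log2(RPKM + 1) minus the gene's mean over the 6 libraries (columns, by set) for the 22 tested members of the unfolded protein response and the 31 tested Atf4 targets (rows), on a colour scale from -1 to 1, with stars on called genes. The UPR rows are mostly below their mean in set 1 and above it in set 2, with 14 called higher, and the Atf4 rows mostly the reverse, with 13 called lower.

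Of 39 tested genes of glycolysis and the hypoxia response, 8 were higher (20.5%) and 2 lower (5.13%), and the median of the list was 0.04. The shares of all genes were 3.94% and 3.67%, so the lower share was near that of all genes. In 12 members the sets did not overlap in the higher direction (13.1% of all genes), and in 5 in the lower (15.5%). *Slc16a3*, the lactate exporter Mct4, was at 0.643, 0.679 and 0.92 RPKM in set 1 and 5.99, 5.46 and 7.58 RPKM in set 2 (log2 difference 2.06, SE 0.15, adjusted p = 0.00194). In depth-corrected reads, set 2 was at 8.5-fold (95% interval 5.27 to 14.5) the level of set 1. The glucose transporter gene *Slc2a1* was at 25, 25.7 and 24 RPKM in set 1 and 58.3, 47.7 and 68.1 RPKM in set 2 (log2 difference 1.18, SE 0.13, adjusted p = 0.00564). *Slc2a3*, a second transporter, was at 155, 161 and 142 RPKM in set 1 and 298, 298 and 281 RPKM in set 2 (log2 difference 0.93, SE 0.10, adjusted p = 0.0052). *Ldha*, which converts pyruvate to lactate, was at 33.2, 27.2 and 28.4 RPKM in set 1 and 64.1, 45.8 and 57.5 RPKM in set 2 (log2 difference 0.89, SE 0.11, adjusted p = 0.00719). None of these overlapped between the sets, and the 4 calls held with any library left out. The others were *Tpi1*, *Bnip3*, *P4ha1* and *Plod2*. *Gapdh* and *Pdk1*, an inhibitor of pyruvate oxidation, were lower (log2 differences -0.58 and -0.76). Without Dzip3-KD 1, 5 members were higher and 0 lower, and without control 2, 6 and 0. With each of the remaining libraries left out there were 6 and 1.

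Of 29 tested genes of the lysosome and autophagy, 8 were higher (27.6%, beside 3.94% of all genes) and 0 lower, with a median of 0.32. *Ctsl*, a cathepsin, was at 19, 25.1 and 18.2 RPKM in set 1 and 34.7, 38.1 and 30.3 RPKM in set 2 (log2 difference 0.71, SE 0.11, adjusted p = 0.0141). Every library of set 2 was above every library of set 1, and the call was lost without control 1 or Ring1B-KD 2 (adjusted p up to 0.0542). Others called higher included *Lamp2*, *Neu1*, *Hexa*, *Psap*, *Npc1* and *Grn*. In 13 members the sets did not overlap in this direction (13.1% over all genes), and in 2 they did not overlap in the other (15.5% over all genes). The count was 1 without control 1 or Ring1B-KD 2 and 3 without control 2 or Dzip3-KD 1.

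Markers of other cell types were low. The 6 defining markers of primitive endoderm (*Gata4*, *Gata6*, *Sox17*, *Sox7*, *Pdgfra* and *Dab2*) summed to 1.75 to 2.88 RPKM in set 1 and 1.09 to 1.25 RPKM in set 2. Of 12 tested genes of the wider endoderm list, 5 were higher in set 2 (41.7%, beside 3.94% of all genes) and 0 lower, with a median of 0.34. All 5 encode matrix, granule or collagen-folding proteins. *Srgn*, a granule proteoglycan, was at 1.77, 1.24 and 2.21 RPKM in set 1 and 6.13, 6.85 and 6.54 RPKM in set 2 (log2 difference 1.47, SE 0.17, adjusted p = 0.00564). *Col4a1*, a basement membrane collagen, was at 0.953, 0.793 and 1.66 RPKM in set 1 and 3.84, 3.42 and 4.77 RPKM in set 2 (log2 difference 1.24, SE 0.16, adjusted p = 0.00809). *Sparc*, a matrix protein, was at 42.7, 45.4 and 44.9 RPKM in set 1 and 70.5, 84.3 and 74.4 RPKM in set 2 (log2 difference 0.77, SE 0.10, adjusted p = 0.0103), and *Lamb1* and *Serpinh1* were the others. The count was 3 without control 2, Ring1B-KD 1, Dzip3-KD 1 or Dzip3-KD 2. The defining markers summed to less in set 2 while the matrix genes were higher, and none of the markers was at 0 throughout. Spread over 6 genes, the marker sums lay near a few reads each, as 3 reads on 2 kb give 0.419 to 0.497 RPKM. The difference between the marker sums was not tested. In bulk RNA, fewer cells of a type and less RNA per cell cannot be told apart.

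Trophectoderm markers (*Cdx2*, *Eomes*, *Hand1* and *Gata3*) summed to 2.70 to 2.94 RPKM in set 1 and 1.18 to 2.58 RPKM in set 2. Of 11 tested genes of that list, 0 were higher and 2 lower (18.2%, beside 3.67% of all genes), *Krt8* and *Esrrb* (median -0.26). *Krt8*, a keratin, was at 2.02, 4.04 and 1.31 RPKM in set 1 and 0.503, 0.678 and 0.309 RPKM in set 2 (log2 difference -1.14, SE 0.20, adjusted p = 0.0199), and lost its call without control 2 or Dzip3-KD 1 (adjusted p up to 0.0697). It passed the filter only through set 1. With control 1 or Ring1B-KD 2 left out, 1 member was higher and 1 lower, and with control 2 or Dzip3-KD 1 left out none was called. Fibroblast markers summed to 3.10 to 5.79 RPKM in set 1 and 3.61 to 3.71 RPKM in set 2, and 0 of 3 tested genes of that list were called by limma (median 0.18). Of 12 tested neural genes, 1 was higher (*Nes*) and 5 lower, *Stmn2*, *Stmn3* (which passed the filter only through set 1), *Nefm*, *Nefl* and *Vim*. Those were 8.33% and 41.7%, beside 3.94% and 3.67% of all genes. *Nefm*, a neurofilament gene, was at 9.04, 8.03 and 7.98 RPKM in set 1 and 0.698, 1.71 and 0.429 RPKM in set 2 (log2 difference -2.32, SE 0.21, adjusted p = 0.00334), and *Nefl* was at 11.9, 8.74 and 9.92 RPKM in set 1 and 3.33, 1.22 and 2.79 RPKM in set 2 (log2 difference -1.75, SE 0.17, adjusted p = 0.0035). *Stmn2*, a microtubule regulator of neurons, was at 42.8, 32.2 and 42.2 RPKM in set 1 and 24.5, 13 and 18 RPKM in set 2 (log2 difference -1.07, SE 0.13, adjusted p = 0.0069). In none of the 3 did the sets overlap, yet the median of the neural list was -0.02, and 0.01 under 75th percentile scaling. The higher call was lost without control 1, Ring1B-KD 1, Ring1B-KD 2 or Dzip3-KD 2.

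Genes of the 2-cell-like state, which a small share of mES cells enters at any time, behaved differently from the groups above. Of 14 tested members 9 were lower in set 2 (64.3%, beside 3.67% of all genes) and 0 higher, with a median of -0.78. Yet in 0 of the 14 were the sets without overlap, beside 15.5% of all genes in the lower direction. *Zscan4a* was at 42.3, 84 and 30.2 RPKM in set 1 and 18.5, 59.7 and 14.5 RPKM in set 2 (log2 difference -0.88, SE 0.14, adjusted p = 0.0152). *Tdpoz4* was at 5.66, 15.2 and 3.99 RPKM in set 1 and 1.09, 6.33 and 0.752 RPKM in set 2 (log2 difference -1.44, SE 0.16, adjusted p = 0.00564). Both were highest in control 2 and Dzip3-KD 1, and lower in set 2 within each pair. The names of control 2 and Dzip3-KD 1 both carry the word for Ring1B knockdown, and *Rnf2* was lowest there (20.4 and 19.4 RPKM). The summed level of the list was 293 to 817 RPKM in set 1 and 154 to 692 RPKM in set 2. The list's median in the pairs was -1.10, -0.31 and -1.0, the smallest being in the pair with the highest level. Without the pairing 0 members were called by limma, so these calls rest on it. The count was 11 without control 2 or Dzip3-KD 1 and 3 without any other library. Members of these families (*Zscan4*, *Tdpoz* and *Usp17l*) are near-identical copies, and uniquely mapped reads can be split unevenly among them.

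**Figure D3:**
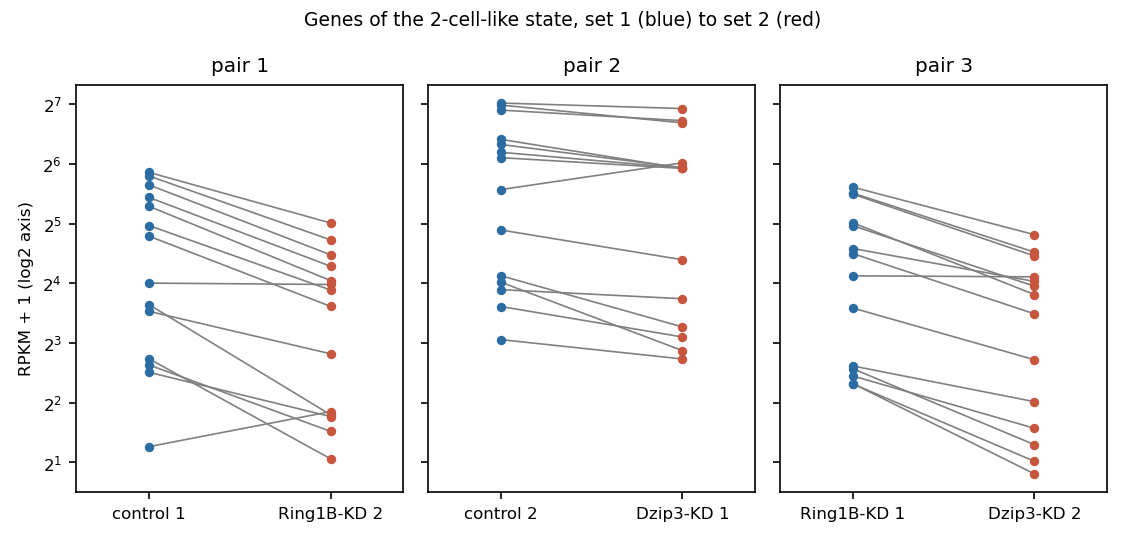
RPKM + 1 on a log2 axis for the 14 tested genes of the 2-cell-like state, with 1 panel for each pair and a line from the set 1 library to the set 2 library. Lines slope down in every pair on the median (-1.10, -0.31 and -1.0), while the pair control 2 and Dzip3-KD 1 lies above the other two in both sets.

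Beyond these lists, the genes with the largest differences among those whose mean reached 5 RPKM included genes of secreted, surface and metabolic proteins. *Igfbp2*, a secreted binding protein of insulin-like growth factors, was at 64, 71.4 and 73.5 RPKM in set 1 and 223, 210.4 and 210.5 RPKM in set 2 (log2 difference 1.61, SE 0.11, adjusted p = 0.00126). *Gpx3*, a secreted glutathione peroxidase, was at 4.15, 5.57 and 7.42 RPKM in set 1 and 16.4, 16.5 and 23.9 RPKM in set 2 (log2 difference 1.58, SE 0.13, adjusted p = 0.00238). *Ldhb*, a lactate dehydrogenase subunit, was at 19.6, 17 and 33.9 RPKM in set 1 and 57.5, 50.9 and 79 RPKM in set 2 (log2 difference 1.41, SE 0.11, adjusted p = 0.00238). These genes did not overlap between the sets, and the order was the same for *Ifitm1*, *Wfdc2*, *Serpine2* and the surface proteoglycan gene *Sdc4* (log2 differences 1.5, 1.48, 1.41 and 1.37). In the other direction, *Trh*, encoding thyrotropin-releasing hormone, was at 56.8, 47.2 and 61.2 RPKM in set 1 and 13.3, 10.6 and 26.8 RPKM in set 2 (log2 difference -1.74, SE 0.18, adjusted p = 0.00464). *Ddah1*, which degrades methylated arginines, was at 17.8, 18.2 and 14.6 RPKM in set 1 and 5.17, 6.45 and 4.77 RPKM in set 2 (log2 difference -1.47, SE 0.12, adjusted p = 0.00268). The transcripts *Gm6792*, *C130074G19Rik* and *1700097N02Rik* differed by -1.67, -1.37 and -1.33, again without overlap.

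Of 15 tested members of the list of nuclear long noncoding RNAs, 5 were higher (33.3%, beside 3.94% of all genes) and 0 lower, with a median of 0.45. *Malat1* was at 105, 97.5 and 82.9 RPKM in set 1 and 217, 222 and 224 RPKM in set 2 (log2 difference 1.21, SE 0.11, adjusted p = 0.0034). *Neat1*, the scaffold of paraspeckles, was at 2.38, 2.01 and 2.23 RPKM in set 1 and 9.24, 6.9 and 8.45 RPKM in set 2 (log2 difference 1.51, SE 0.14, adjusted p = 0.0034). Neither overlapped between the sets. The others were *Snhg7*, *Snhg11* and *Rpph1*, the RNase P RNA, which the list includes. The median of the list was -0.12 without Ring1B-KD 1 or Dzip3-KD 2, while 4 or 5 members were called with any 1 library left out. Of 11 listed small nucleolar RNAs, 4 passed the filter. *Scarna13* was the 1 called higher, listed at 0 in every library of set 1 and at 1.11, 2.24 and 1.02 RPKM in set 2. It passed the filter on low values only through set 2, where it was high, so it had to differ, and the list's count and its median of 0.85 are given as a description. Of 43 tested replication-dependent histone genes, 0 were higher and 1 lower (2.33%, beside 3.67% of all genes), *Hist1h2ae*, with a median of 0.00. With 1 library left out, 2 were higher and 3 lower (control 1 or Ring1B-KD 2), 1 was higher (control 2 or Dzip3-KD 1) or none was called (Ring1B-KD 1 or Dzip3-KD 2).

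Some cell cycle and proteostasis lists had more lower calls than the 3.67% of all genes. Of 32 tested G1/S genes, 0 were higher and 4 lower (*Mcm5*, *Mcm7*, *Cdk6* and *Uhrf1*; median -0.30), or 12.5%, and in 14 the sets did not overlap in that direction, beside 15.5% of all genes. *Cdk6*, a G1 kinase, was at 5.5, 3.19 and 4.92 RPKM in set 1 and 1.1, 0.744 and 1.81 RPKM in set 2 (log2 difference -1.32, SE 0.17, adjusted p = 0.0093), and the count was 1 without control 1, control 2, Ring1B-KD 2 or Dzip3-KD 1, and 2 without Ring1B-KD 1. It was 2 without the pairing, and 1 under the replicate block or without the variance trend. Of 30 G2/M genes, 0 were higher and 2 lower (*Cdc20* and *Kif20a*; median -0.17), or 2 higher and 1 lower under 75th percentile scaling, and 0 without control 2 or Dzip3-KD 1 and 1 without control 1 or Ring1B-KD 2. Of 23 heat shock genes, 0 were higher and 4 lower (*Hspa4*, *Hspe1*, *Bag3* and *Tcp1*; median -0.26), or 17.4%, with no overlap in that direction in 9. The lower calls numbered 2 with 75th percentile scaling or without the pairing, 1 with quantile normalization and 0 under the replicate block or without the variance trend. Of these genes 0 were called by limma without control 2 or Dzip3-KD 1, and 1 without control 1 or Ring1B-KD 2. Of 44 proteasome genes, 0 were higher and 2 lower (*Psmc3* and *Psmd2*; median -0.22). In 15 of them the sets did not overlap in that direction, and 1 was lower without control 1, control 2, Ring1B-KD 2 or Dzip3-KD 1. Of 79 cytosolic ribosomal protein genes, 1 was higher and 3 lower, with a median of -0.03 that became 0.01 under 75th percentile scaling, which left 1 lower, and 0 were lower without the pairing. Their lower calls numbered 5 without Ring1B-KD 1, 1 without control 1 or Ring1B-KD 2, and 2 (with 2 higher) without control 2 or Dzip3-KD 1. Of 77 mitochondrial ribosomal protein genes, 1 was higher and 2 lower (median -0.10), or 0 lower with 75th percentile scaling, with 2 higher without control 1 or Ring1B-KD 2, and 0 and 1 lower without Ring1B-KD 1 and Dzip3-KD 2. Of 82 oxidative phosphorylation genes, 3 were higher and 1 lower (median 0.01), or 2 and 3 without control 2 or Dzip3-KD 1, and 4 and 2 without Ring1B-KD 1 or Dzip3-KD 2. *Cox6a1*, a subunit of cytochrome c oxidase, was at 167, 170.1 and 136 RPKM in set 1 and 255, 249 and 243 RPKM in set 2 (log2 difference 0.67, SE 0.11, adjusted p = 0.0147). No genes encoded on the mitochondrial genome were in the list tested.

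Among stress and signalling lists, 24 tested genes of the p53 list gave 2 higher (*Eda2r* and *Ei24*) and 2 lower, with a median of 0.04. The lower genes were *Trp53*, which encodes p53 itself, and *Sesn2*, which was also counted in the Atf4 list. The shares were 8.33% each way, beside 3.94% higher and 3.67% lower of all genes. Without control 2 or Dzip3-KD 1, 0 of them passed by limma, and without control 1 or Ring1B-KD 2 there were 3 higher and 1 lower. For 25 tested Nrf2 and iron genes there were 1 higher (*Tfrc*, the transferrin receptor) and 1 lower (*Hmox1*, a heme oxygenase), with a median of -0.24. At 4% each way, these shares were near those of all genes. The lower calls were 2 without Ring1B-KD 1 or Dzip3-KD 2 and 0 without any other library. The 23 tested genes of cholesterol synthesis had 0 higher and 2 lower (8.7%, beside 3.67% of all genes), *Mvd* and *Ebp*, with a median of -0.12. Without control 1, Ring1B-KD 1, Ring1B-KD 2 or Dzip3-KD 2, 1 was lower. For the interferon response, 15 tested genes gave 2 higher (*Ifitm1* and *B2m*) and 1 lower, *Ddx58*, an RNA sensor, at 5.97, 5.54 and 6.36 RPKM in set 1 and 1.9, 1.11 and 2.54 RPKM in set 2 (log2 difference -1.32, SE 0.17, adjusted p = 0.00809), with a median of -0.16. With 75th percentile scaling 4 were higher and 1 lower. Without control 2 or Dzip3-KD 1, 1 was higher and the median was 0.13. The 19 tested genes of actin and YAP had 1 higher (*Cnn2*) and 2 lower (*Amotl2* and *Vim*; median -0.08). None was lower without control 1 or Ring1B-KD 2, none was called without control 2 or Dzip3-KD 1, and 0 were higher and 3 lower without Ring1B-KD 1 or Dzip3-KD 2.

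Among 39 tested Polycomb and H2A ubiquitin genes, 0 were higher and 2 lower, *Phc2* and *Rbbp7* (median -0.08). The lower share was 5.13%, near the 3.67% of all genes. *Rbbp7*, a histone-binding subunit, was at 41.5, 42.2 and 48.1 RPKM in set 1 and 24, 29 and 25.1 RPKM in set 2 (log2 difference -0.74, SE 0.12, adjusted p = 0.0142), and 1 gene was called without control 2, Ring1B-KD 1, Dzip3-KD 1 or Dzip3-KD 2. Among 11 tested Hox genes and *Halr1*, limma called 0 in either direction (median -0.30), and 1 lower without control 1 or Ring1B-KD 2. Among 20 tested germline genes, 2 were higher, *Tuba3a* and *Tuba3b*, and 1 lower, *Rhox1* (median -0.18). These were 10% and 5%, beside 3.94% and 3.67% of all genes. With any 1 library left out 1 was higher, and *Rhox1* lost its call without control 1, Ring1B-KD 1, Ring1B-KD 2 or Dzip3-KD 2 (adjusted p up to 0.137). *Rhox1* also passed the filter only through set 1. *Tuba3a*, a tubulin gene of testis with a near-identical copy, was at 54.1, 44.6 and 46.4 RPKM in set 1 and 92.6, 93.7 and 95.2 RPKM in set 2 (log2 difference 0.95, SE 0.11, adjusted p = 0.00564). Among 26 tested imprinted genes, 1 was higher (*Rian*) and 3 lower (*Peg10*, *Plagl1* and *Grb10*), with a median of 0.08. These were 3.85% and 11.5%, beside 3.94% and 3.67% of all genes, so the higher share was near that of all genes. With 75th percentile scaling 3 were higher and 2 lower, and with quantile normalization 3 and 3, so the balance turned with the scaling. Without the pairing 0 were higher and 2 lower, and *Rian* lost its call with any 1 library left out.

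**Figure D4:**
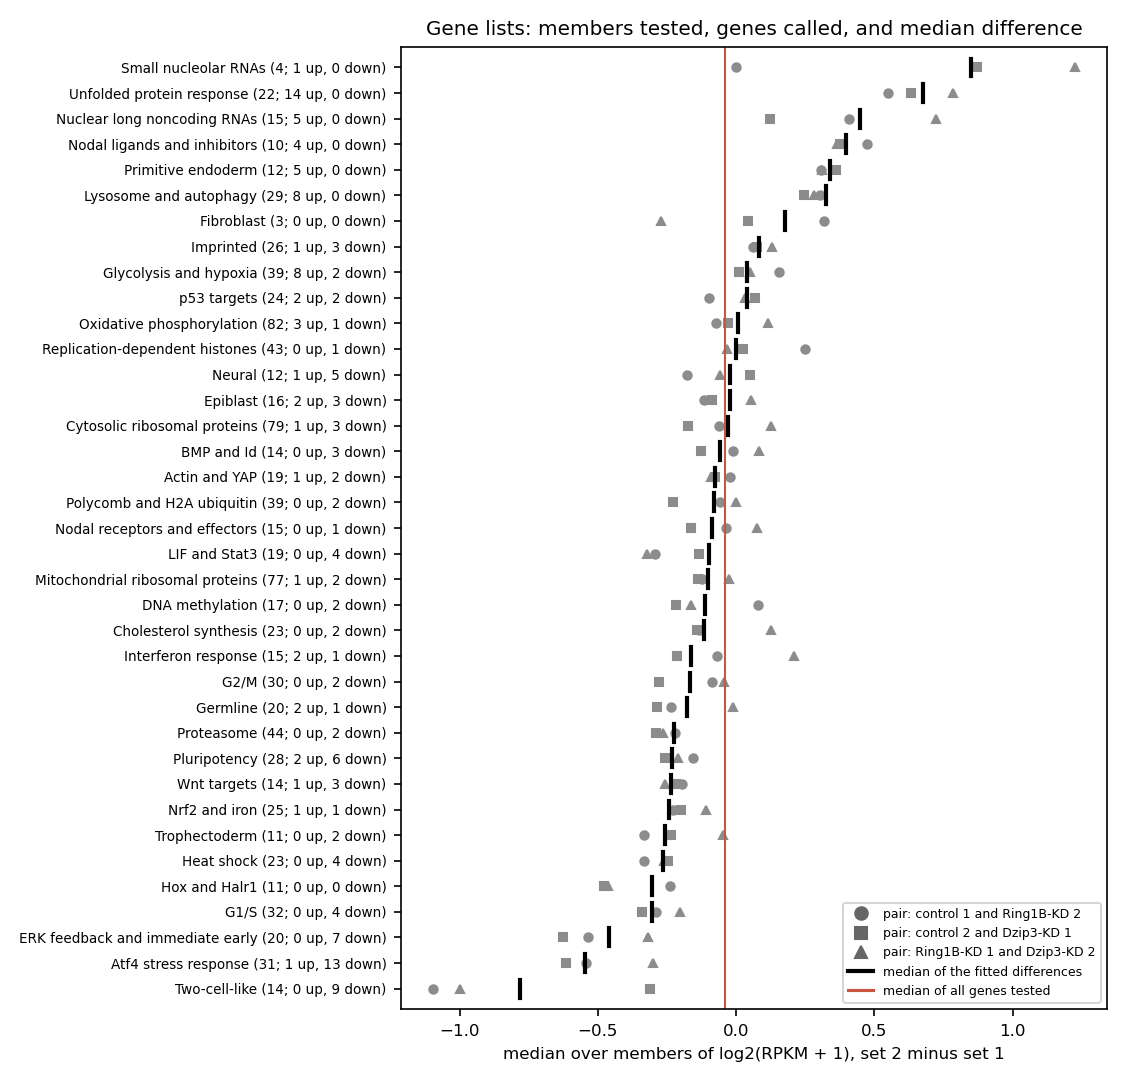
Median log2 difference (set 2 minus set 1) for each gene list, with the fitted median as a black tick, the medians in the 3 pairs as grey marks and the median of all genes (-0.04) as a red line. The labels give the tested, higher and lower members, with the unfolded protein response at 0.67, the 4 small nucleolar RNAs at 0.85 and the 2-cell-like genes at -0.78.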

How the data were processed

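Total RNA of 6 mES cell samples was sequenced on a MiSeq from stranded mRNA libraries, and the authors deposited 1 RPKM list of 16668 genes per sample. By the study's methods, reads were aligned to mm9 with the Illumina pipeline and uniquely mapped reads were counted over exons. Sets followed the number in the list names. The members and gene lists were chosen with earlier results of these data known, so p-values do not allow for that choice. log2(RPKM + 1) of the genes whose mean reached 0.5 RPKM was fitted with limma 3.58.1 (R 4.3.3), with a variance trend and terms for set and condition word. Benjamini-Hochberg adjusted p under 0.05 was a call. Deviations of paired libraries correlated at 0.141, 0.299 and 0.118 across genes. Mapped reads and reads per gene were inferred from the RPKM values, not counted. Whole reads were recovered for 93.4% of genes (tolerance 0.05 reads), 38.1% of these at an annotated transcript length. For the rest, the shortest length that gave whole reads in all libraries was taken, so a count may be off by a multiple. Read intervals are exact for the recovered counts and cover counting error only. Named were *Lefty1*, the targeted genes, 3 pluripotency factors, the 10 largest called differences each way (mean at least 5 RPKM, same sign in 3 pairs), and up to 4 members per list of smallest p (mean at least 1 RPKM). Some genes that this rule selects are not reported here. Other names are members of a printed count or were chosen after their values were seen. The fit was also run on simulated counts with known set differences. These were drawn independently for each library without an effect of the condition word, so that run did not check the pairing. Alternatives covered pseudocount, filter, scaling, pairing, labels, trend, left-out libraries and, added later, voom on recovered reads.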

Additional observations from a re-analysis of the deposited data

How the results depend on the processing

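The 455 higher and 424 lower calls became 382 and 350 at a pseudocount of 0.1, 440 and 409 at 0.5, 374 and 444 with a minimum mean of 5 RPKM, 564 and 341 with 75th percentile scaling, and 504 and 333 with quantile normalization. Without the pairing they were 356 and 282, and without the variance trend 290 and 205. With the labels' replicate number in place of that pairing (the replicate block), 138 and 96 genes were called, and *Lefty1* differed by 1.73 (adjusted p = 0.0478). Without a filter limma called 0 and 0 (1494 and 1699 at an unadjusted p under 0.05), and *Lefty1* was at 1.63 (adjusted p = 0.0937). With the labelled group as a term it called 0 and 0, and *Lefty1* was at 0.56 (adjusted p = 0.609). Voom on recovered reads, chosen after seeing the data, called 753 and 835, of which 391 and 365 were among those above. Leaving out 1 library gave 192 to 294 higher and 159 to 279 lower calls, and *Lefty1* at 1.43 to 1.75. The genes with no overlap, higher in set 2, numbered 765 with the 5 RPKM minimum and 1850 to 2296 with 1 library left out (2296 without Dzip3-KD 1), and the genes with no overlap, lower in set 2, numbered 1151 and 2181 to 2610. With the labelled group as a term, the median of 9 lists turned sign, each of them at most 0.18 in size before: Nodal receptors, BMP and Id, fibroblast, imprinted, p53, cholesterol, interferon, Polycomb and cytosolic ribosomal proteins. Under the replicate block, the lists with the most calls had counts of 11 for the unfolded protein response (higher), and 6 for Atf4 targets, 3 for ERK and 0 for 2-cell-like genes (lower), with 2 higher for the lysosome, 4 for glycolysis and hypoxia, 3 for primitive endoderm and 2 for Nodal ligands. Without the variance trend these counts were 10, 6, 6, 4, 4, 5, 4 and 2. With the 5 RPKM minimum, the medians of the trophectoderm, glycolysis and hypoxia, and interferon lists became 0.03, -0.04 and 0.38. Some of these settings use fewer genes or libraries, and the causes of the changes were not tested. At a median of 18 recovered reads per gene and library, counting error limits low genes such as *Lefty1*.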
